A study of Homo sapiens with 20 samples.

Results

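HEL cells that persist in fedratinib were compared with HEL cells that persist in ruxolitinib, both by RNA sequencing of total RNA. The comparison was chosen by its sample names and holds 4 of the 20 libraries of the series, 2 of fedratinib-persistent cells (FedP) and 2 of ruxolitinib-persistent cells (RuxP). HEL is an established human erythroleukaemia line, and the labels describe all these cells as JAK2 V617F mutant. The persistent cells were obtained by long culture with a JAK2 inhibitor, and 2 libraries of parental HEL cells, held in the same table, give the starting level. The sources used here do not give the drug concentrations, the length of the culture, whether drug was present at harvest, or whether a persistent line is 1 clone or a pool. Nor do they say that the 2 libraries of a group came from separate cultures, so the spread between them may be technical.

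JAK2 is the kinase that carries signals from the erythropoietin and thrombopoietin receptors to STAT5, the MAP kinases and the PI3 kinase pathway, and the V617F change keeps it active without a hormone. Ruxolitinib inhibits JAK1 and JAK2, and fedratinib is a more JAK2-selective inhibitor with a different chemical scaffold. HEL cells carry both erythroid and megakaryocytic traits. Dividing cells switch on genes of DNA synthesis before S phase and genes of mitosis in G2, and these 2 waves are known to rely on E2F factors and on the DREAM and MuvB complexes.

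Genes of mitosis and DNA replication stood lower in FedP than in RuxP, and the FedP levels lay near those of the parental cells. Replication-dependent histone genes, given further on, did not stand lower. TOP2A, the topoisomerase that untangles chromosomes before mitosis (chr17, ENSG00000131747), was read at 798 and 534 CPM (counts scaled to the size of the library) in RuxP and at 94.8 and 97.0 CPM in FedP. The parental libraries held 95.9 and 186 CPM, so FedP sat at the level of the lower parental library and RuxP above both. Its log2 fold change, FedP minus RuxP, was -2.80 (SE 0.364, n = 2 against 2, edgeR adjusted p = 0.032). MKI67, the proliferation marker Ki-67, was read at 359 and 300 CPM in RuxP, 53.4 and 55.5 CPM in FedP and 53.8 and 72.9 CPM in the parental cells. Its log2 fold change was -2.60 (SE 0.211, edgeR adjusted p = 0.018).

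The promoters of 3 genes that stood lower and 2 that stood higher in FedP are printed first. They are examples that hold the short motifs counted further on. Where a gene had several RefSeq starts, the stretch with the most matches was printed. Each runs 5′ to 3′ on the gene's strand from 200 bases before to 10 bases after the RefSeq start (build GRCh38.p14), and all 5 genes are on the minus strand. Capitals mark the cell cycle homology element (searched as TTTGAA) and the CCAAT box in TOP2A (chr17:40417887-40418096) and MKI67 (chr10:128126414-128126623). In CLSPN they mark the CCAAT box and an E2F element, searched as TTTCCCGC, within chr1:35769969-35770178. In the other 2 promoters they mark a GATA element (searched as AGATAA), for ALAS2 (chrX:55030968-55031177) and for PKLR (chr1:155301429-155301638). Matches on either strand are in capitals, and a match on the other strand appears as its reverse complement.
TOP2A: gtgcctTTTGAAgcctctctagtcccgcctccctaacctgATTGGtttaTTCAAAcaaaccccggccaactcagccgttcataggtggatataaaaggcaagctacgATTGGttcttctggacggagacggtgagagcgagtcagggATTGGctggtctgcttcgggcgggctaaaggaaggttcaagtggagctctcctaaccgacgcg
MKI67: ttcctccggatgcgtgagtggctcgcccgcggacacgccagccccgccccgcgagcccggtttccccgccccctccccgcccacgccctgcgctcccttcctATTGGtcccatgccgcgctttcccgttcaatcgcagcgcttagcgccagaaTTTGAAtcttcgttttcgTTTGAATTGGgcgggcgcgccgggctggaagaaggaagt
CLSPN: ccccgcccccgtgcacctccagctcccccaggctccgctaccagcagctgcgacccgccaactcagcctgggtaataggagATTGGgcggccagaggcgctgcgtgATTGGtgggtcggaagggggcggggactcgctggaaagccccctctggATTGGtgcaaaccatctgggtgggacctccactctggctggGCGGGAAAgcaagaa
ALAS2: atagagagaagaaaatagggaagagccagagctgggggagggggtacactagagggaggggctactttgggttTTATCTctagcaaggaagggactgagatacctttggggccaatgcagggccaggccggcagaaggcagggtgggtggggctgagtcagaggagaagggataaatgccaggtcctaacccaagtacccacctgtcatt
PKLR: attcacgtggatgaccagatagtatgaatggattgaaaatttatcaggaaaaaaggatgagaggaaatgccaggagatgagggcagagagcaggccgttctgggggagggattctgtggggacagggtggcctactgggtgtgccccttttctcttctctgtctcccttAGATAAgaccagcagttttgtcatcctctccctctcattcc

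Of the 15924 genes tested, 222 were called (1.39%, Benjamini-Hochberg adjusted p under 0.05 in edgeR's quasi-likelihood test). Of these, 185 were lower in FedP (1.16% of the genes tested) and 37 were higher (0.232%). All 37 higher genes and 182 of the lower ones differed at least 2-fold, and 216 of the 222 encode proteins. In all 222 the FedP and RuxP libraries did not overlap, but over all genes tested the same was true of 40.3% with FedP higher and of 35.7% with FedP lower. The 5 lists of cell division genes used here hold 167 genes, of which 165 were tested and 70 were lower in FedP. Those 70 make up 42.4% of the members tested and 37.8% of all genes called lower. The lists on cyclins, on recombination, and on condensin and cohesin were written after the values were seen. These shares are thus not independent of the values.

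The count rests on every library of the contrast. Without RuxP 1, RuxP 2, FedP 1 or FedP 2, edgeR called 0 genes, with 1877, 5616, 2118 and 2350 genes at an unadjusted p under 0.05. These fits leave 1 library in a group. Without RuxP 1 the median log2 fold change was -1.76 for the mitosis list and -1.23 for the DNA replication list, both described next, against -1.81 and -1.24 with all libraries. Without parental 1 it called 5672 genes and without parental 2 it called 5332. The 2 parental libraries differed from each other by a median of 0.514 on the log2 scale and the RuxP libraries by 0.342, against 0.0758 between the FedP libraries. Deposited totals were 51799814 and 59199791 counts in RuxP, 79755715 and 77435214 in FedP, and 59204428 and 54801993 in the parental cells. RuxP 1 had the fewest genes detected, 16559 against 18528 to 20199 in the other 5.

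**Figure D1:**
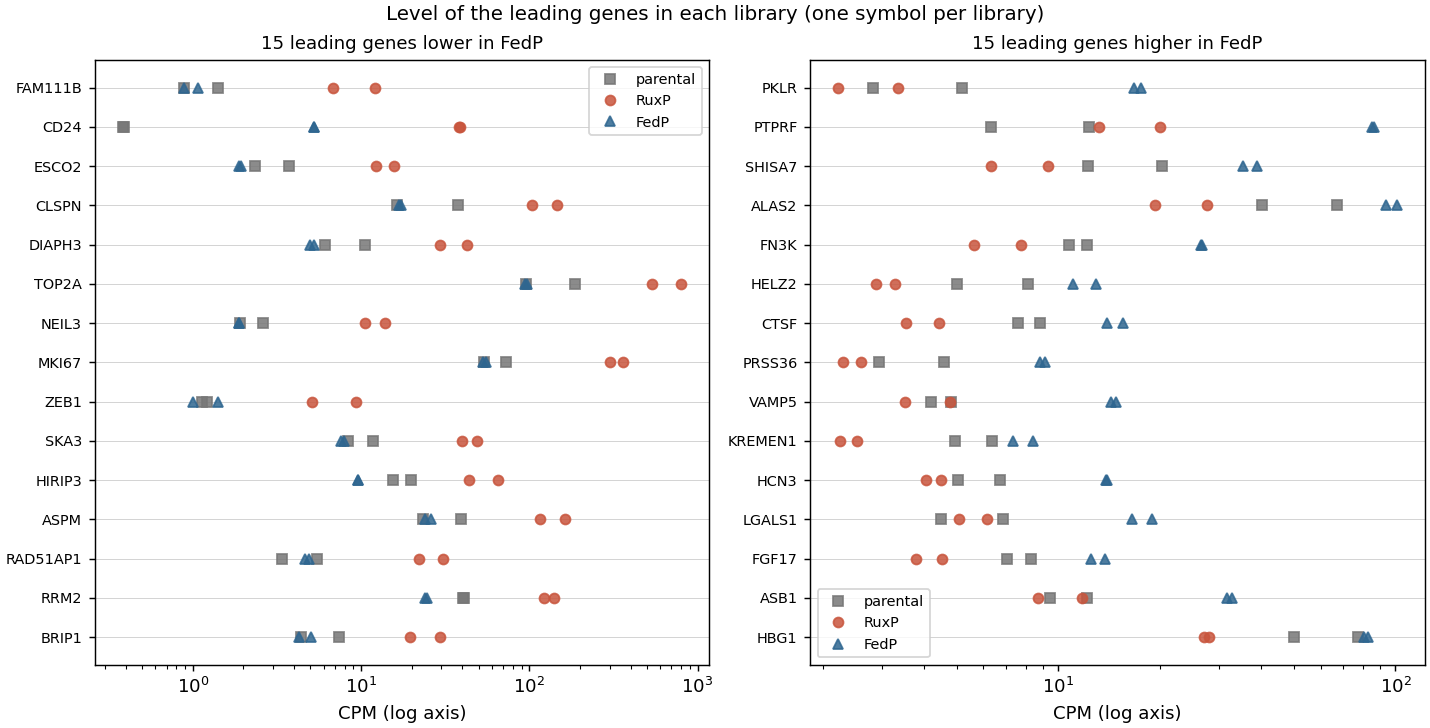
CPM on a log axis for the 15 genes with the largest falls and the 15 with the largest rises in FedP against RuxP. Each symbol is 1 library (squares parental, circles RuxP, triangles FedP), and in no row do the RuxP and FedP symbols overlap, as the choice of genes required.

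Genes of mitosis were lower as a group. Of the 32 members tested, 23 were called lower in FedP (1.16% of all genes tested) and 0 higher, and their median log2 fold change was -1.81 against 0.04 over all genes tested. In all 32 both FedP libraries lay below both RuxP libraries, as in 35.7% of all genes tested. The summed level of the list was 3674 and 3146 CPM in RuxP, 890 and 910.1 CPM in FedP, and 910.9 and 1183 CPM in the parental cells. In bulk RNA a smaller share of dividing cells and less of each RNA per cell cannot be told apart.

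Members of this list act at different steps of division. ASPM, which organises the spindle poles, was read at 164 and 116 CPM in RuxP and 24.0 and 26.0 CPM in FedP, beside 23.4 and 39.1 CPM in the parental cells (log2 fold change -2.48, SE 0.304, edgeR adjusted p = 0.027). CENPF, a kinetochore protein, was read at 244 and 177 CPM in RuxP and 38.0 and 43.0 CPM in FedP (log2 fold change -2.38, edgeR adjusted p = 0.03). CDK1, the kinase that drives entry into mitosis, was read at 67.0 and 51.02 CPM in RuxP and 11.4 and 11.6 CPM in FedP (log2 fold change -2.36, edgeR adjusted p = 0.047). For each of these 3 genes the gap between the groups was wider than the gap between the RuxP libraries. They were chosen among the called members by size of fold change, and that choice favours such a gap.

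DNA replication genes followed the same direction with a smaller median. Of 38 members tested, 21 were called lower in FedP (against 1.16% of all genes tested) and 0 higher, and the median log2 fold change was -1.24. RRM2, the regulated subunit of ribonucleotide reductase, was read at 123 and 139 CPM in RuxP and 23.9 and 24.8 CPM in FedP, with 40.7 and 40.5 CPM in the parental cells (log2 fold change -2.43, SE 0.155, edgeR adjusted p = 0.018). Both FedP libraries lay below the parental ones for RRM2, whereas the summed level of the list was 1144 and 1136 CPM in FedP, above the 1041 and 878.5 CPM of the parental cells, and 2173 and 2319 CPM in RuxP. CDC45, a part of the replicative helicase, had a log2 fold change of -2.32, and MCM10, a factor that activates this helicase, one of -2.03. Replication-dependent histone genes pointed the other way. Of 18 tested, edgeR called 0, and 14 had a fitted value above 0 and 4 below. Their median was 0.76, or 0.48 with GC and length trends removed. They summed to 118.3 and 118.7 CPM in RuxP, 167.8 and 163 CPM in FedP, and 198.7 and 190.1 CPM in the parental cells.

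Some genes that protect or repair replicating DNA were also lower. Of 37 homologous recombination and Fanconi genes tested, 14 were called lower (against 1.16% of all genes tested), 0 higher and 23 neither. This list was written after the values were seen. Its median log2 fold change was -0.99, and 7 members had a fitted value above 0. CLSPN, an adaptor of the replication checkpoint, was read at 147 and 103 CPM in RuxP, 17.4 and 16.9 CPM in FedP and 16.3 and 37.8 CPM in the parental cells (log2 fold change -2.87, SE 0.421, edgeR adjusted p = 0.041). BRIP1, a helicase that binds BRCA1, and BRCA1 itself had log2 fold changes of -2.40 and -2.33. NEIL3, a DNA glycosylase that opens crosslinks, was read at 13.9 and 10.5 CPM in RuxP and at 1.89 CPM in both FedP libraries.

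Of 24 genes of condensin, cohesin and their regulators, 7 were called lower (against 1.16% of all genes tested) and 0 higher. This list was written after the values were seen, and its median log2 fold change was -1.03. ESCO2, which acetylates cohesin in S phase, led with -2.87 (SE 0.29, edgeR adjusted p = 0.019), from 15.7 and 12.3 CPM in RuxP to 1.89 and 1.94 CPM in FedP. The PBK gene overlaps ESCO2 on the opposite strand and stood lower too (log2 fold change -2.21). The strand setting of the counting is not given, so reads of this pair may be shared. The condensin subunits NCAPG, NCAPH and NCAPG2 had log2 fold changes of -2.35, -1.83 and -1.75.

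Among cyclins, CDKs, E2F factors and their inhibitors, 8 of 38 genes tested were called lower (against 1.16% of all genes tested) and 0 higher. Besides CDK1 they included CCNA2, the cyclin of S phase and G2, at -1.73, FOXM1, a transcription factor of the mitotic genes, at -1.64, and RBL1, the DREAM pocket protein p107, at -1.61. The other 30 members were not called. The list had a median log2 fold change of -0.68 and was written after the values were seen.

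**Figure D2:**
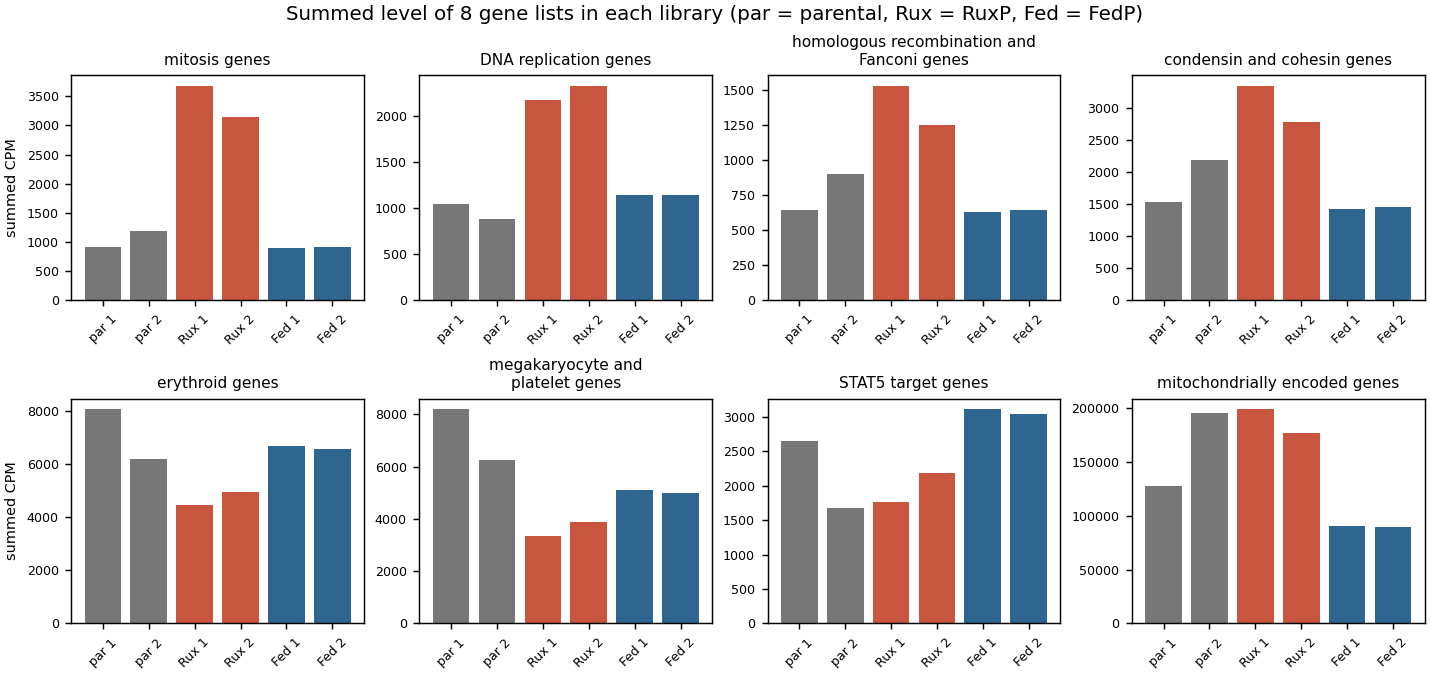
Summed CPM of 8 gene lists in each library, with bars from 0. RuxP bars are the tallest in the 4 cell division lists, where the FedP bars are nearer to the parental ones than to RuxP (for DNA replication above both parental bars), and the FedP bars are shortest for mitochondrially encoded genes.

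The promoter motifs differed between these groups. TTTGAA was found in 20 of the 27 mitosis genes with a promoter in the RefSeq table (74.1%), in 1 of 31 DNA replication genes and in 18.2% of all 27305 genes in it. TTTCCCGC was found in 10 of the 31 replication genes (32.3%), in 1 of the mitosis genes and in 1.98% of all genes. CCAAT was found in 22 of the 27 mitosis genes, in 19 of the 31 replication genes and in 39.7% of all genes. Of the 15 leading genes lower in FedP, 13 were matched, and 7 held TTTGAA, 11 CCAAT and 1 TTTCCCGC. A gene was counted where any of its 300-base promoters held the letters on either strand, and a match is a description of the sequence, not a bound site.

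CD24, a small glycoprotein on the cell surface (chr6, ENSG00000272398), showed another pattern. It was read at 0.383 and 0.388 CPM in the parental cells, 38.8 and 38.3 CPM in RuxP and 5.26 CPM in both FedP libraries. Both persistent lines thus held more than the parental cells, and FedP less than RuxP (log2 fold change -2.87, SE 0.162, edgeR adjusted p = 0.018). CD24 has near-identical copies elsewhere in the genome, so its count depends on how the reads were assigned.

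The other leading genes with lower levels in FedP included FAM111B, a trypsin-like protease, at -3.26 (SE 0.401, edgeR adjusted p = 0.027). It was read at 12.1 and 6.83 CPM in RuxP and at 0.891 and 1.08 CPM in FedP. ZEB1, a repressor of epithelial genes, was read at 9.37 and 5.10 CPM in RuxP and 1.42 and 1.01 CPM in FedP. DIAPH3, an actin-nucleating formin, SKA3, a kinetochore protein, and HIRIP3, a histone chaperone, had log2 fold changes of -2.82, -2.52 and -2.50. ERG, a transcription factor of blood stem cells, was the 1 gene of 14 stem and progenitor genes that was called (against 1.16% of all genes tested called lower). It was read at 17.3 and 13.5 CPM in RuxP, 4.55 and 4.37 CPM in FedP and 3.64 and 5.19 CPM in the parental cells.

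In the fit reported here fewer genes were higher in FedP than lower, and red cell enzymes were among the first of them. This balance depended on the fit: DESeq2 called 1895 higher and 1710 lower, and edgeR called 1645 and 1241 without the low-count filter, 2891 and 2892 from the 4 libraries alone, 2906 and 2766 without parental 1, and 2849 and 2483 without parental 2. PKLR, the pyruvate kinase of liver and red cells, was read at 17.6 and 16.8 CPM in FedP, 3.34 and 2.23 CPM in RuxP and 5.19 and 2.83 CPM in the parental cells (log2 fold change 2.63, SE 0.353, edgeR adjusted p = 0.034). FN3K, which removes sugars from glycated proteins such as haemoglobin, was read at 26.7 and 26.5 CPM in FedP and 5.63 and 7.74 CPM in RuxP (log2 fold change 1.99, edgeR adjusted p = 0.022). These 2 were the members called of 22 red cell metabolism genes tested, against 0.232% called higher of all genes tested. That list was written after the values were seen. Its median log2 fold change was 0.47, and 7 members had a fitted value below 0. With GC and length trends removed the median was 0.04. In that fit 4 members were called higher and 3 lower (against 6.09% and 8.47% of all genes tested). PKLR overlaps HCN3, a pacemaker channel gene on the opposite strand, by 556 bases, and HCN3 was also higher (log2 fold change 1.70), so both may hold reads of the same RNA.

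Of 43 erythroid genes tested, 2 were called higher (against 0.232% of all genes tested) and 0 lower, with a median log2 fold change of 0.53. ALAS2, the first enzyme of haem synthesis in red cells, was read at 101 and 93.4 CPM in FedP, 19.3 and 27.7 CPM in RuxP and 66.9 and 40.2 CPM in the parental cells (log2 fold change 2.05, SE 0.301, edgeR adjusted p = 0.041). HBG1, a fetal globin, was read at 80.8 and 83.1 CPM in FedP, 27.0 and 28.1 CPM in RuxP and 77.2 and 49.9 CPM in the parental cells (log2 fold change 1.57, SE 0.232, edgeR adjusted p = 0.041). HBG2 is a near-identical copy of HBG1, and how reads were divided over this pair is unknown. Its log2 fold change was 1.49 and missed the threshold (edgeR adjusted p = 0.053).

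Other erythroid genes, named after their values were seen, did not pass in this fit. GATA1 was read at 232 and 226 CPM in FedP and at 91.6 and 119 CPM in RuxP (log2 fold change 1.12, edgeR adjusted p = 0.11). KLF1 and EPOR, the erythropoietin receptor, had log2 fold changes of 1.54 and 1.48, with edgeR adjusted p of 0.096 and 0.082. TFRC, the transferrin receptor that brings iron into red cell precursors, pointed the other way, at 187 CPM in both FedP libraries and 326 and 324 CPM in RuxP (log2 fold change -0.79, edgeR adjusted p = 0.085). DESeq2 called all 4 of these genes, as it did 3605 of the 15924 genes tested. With GC and length trends removed the log2 fold changes shrank to 0.29 for GATA1, 0.40 for KLF1, 0.71 for EPOR and -0.41 for TFRC, and edgeR called the last 3 (adjusted p = 0.032, 0.0098 and 0.025). AGATAA was found in the promoters of 13 of the 26 erythroid genes matched and in 12.4% of all genes, and in 0 of the 27 mitosis genes. Among the leading genes higher in FedP it was found in 2 of the 11 matched (18.2%).

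Genes of several other kinds completed the higher set. PTPRF, a receptor tyrosine phosphatase, was read at 84.9 and 86.4 CPM in FedP, 13.2 and 19.99 CPM in RuxP and 12.4 and 6.32 CPM in the parental cells (log2 fold change 2.37, SE 0.362, edgeR adjusted p = 0.044). SHISA7, HELZ2, CTSF and VAMP5 had log2 fold changes of 2.24, 1.95, 1.89 and 1.81. HELZ2 is an interferon-induced helicase, CTSF a lysosomal protease and VAMP5 a vesicle fusion protein. KREMEN1, a co-receptor of the Wnt antagonist DKK1, LGALS1, a galectin, FGF17, a growth factor, and ASB1, a ubiquitin ligase adaptor, lay between 1.65 and 1.72. MVP, the major vault protein and not itself a transporter, was the 1 gene called of 13 on the drug efflux list (log2 fold change 1.16, edgeR adjusted p = 0.041). Of all genes tested, 0.232% were called higher.

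**Figure D3:**
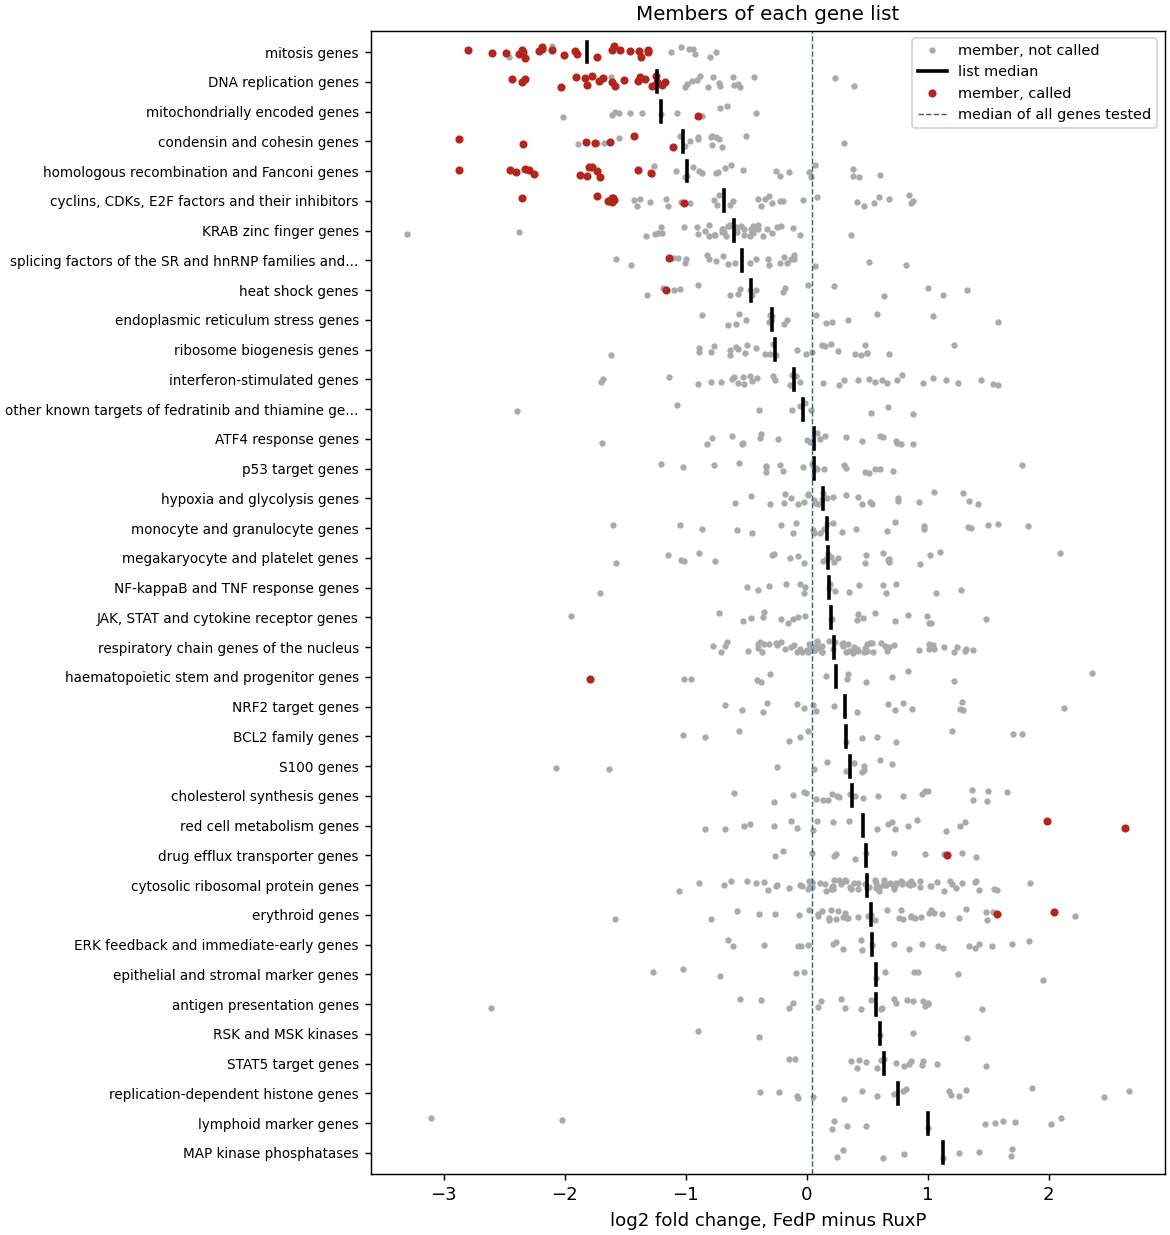
Log2 fold change, FedP minus RuxP, of each tested member of 38 gene lists. Red points are called, black bars are list medians and the dashed line is the median of all genes tested, and the mitosis and DNA replication lists lie farthest to the left.

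The genes of the pathway that both drugs act on did not pass the threshold in the fit reported here. JAK2 was read at 298 and 307 CPM in FedP, 467 and 368 CPM in RuxP and 388 and 670 CPM in the parental cells (log2 fold change -0.46, SE 0.276, edgeR adjusted p = 0.28). DUSP6, an ERK phosphatase, was read at 8.51 and 7.83 CPM in FedP, 2.74 and 4.72 CPM in RuxP and 0.661 and 2.71 CPM in the parental cells. Its log2 fold change was 1.13 (SE 0.602, edgeR adjusted p = 0.24). The FedP and RuxP libraries do not overlap for DUSP6, but the RuxP pair and the parental pair, which is part of the same fit, are both spread widely. DUSP1, another MAP kinase phosphatase, RPS6KA1, which encodes the kinase RSK1, and EGR1, an immediate-early gene, had log2 fold changes of 0.63, 0.60 and 1.39. Their edgeR adjusted p were 0.31, 0.15 and 0.082. The log2 fold change of RPS6KA1 turned to -0.03 with GC and length trends removed. From the FedP and RuxP libraries alone, JAK2, DUSP6, RPS6KA1 and EGR1 were called (edgeR adjusted p = 0.048, 0.033, 0.031 and 0.012). DUSP1 was not (edgeR adjusted p = 0.17). That fit called 5783 of 15550 genes.

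STAT5 targets stood in the same position. Of 17 tested, edgeR called 0, with 8 at an unadjusted p under 0.05, while DESeq2 called 3 and limma-voom 0. Over all 15924 genes tested, 5103 had an unadjusted p under 0.05 in edgeR, DESeq2 called 3605 and limma-voom 445. The list median was 0.64, and 0.10 with GC and length trends removed, where 2 were called higher (against 6.09% of all genes tested). From the FedP and RuxP libraries alone 11 were called higher, as were 2891 of all 15550 genes in that fit. PIM1, a survival kinase, was read at 877 and 839 CPM in FedP and 511 and 610 CPM in RuxP (log2 fold change 0.61, edgeR adjusted p = 0.14, and 0.14 on the log2 scale with the trends removed). CISH, a feedback inhibitor, had 0.43 (edgeR adjusted p = 0.44), or -0.14 with GC and length trends removed. MYC had 0.95 (edgeR adjusted p = 0.11), and 0.58 with the trends removed, where it was called (edgeR adjusted p = 0.047). It was not called once a replicate block was added to that fit. Of 23 JAK, STAT and cytokine receptor genes, edgeR called 0, with 10 at an unadjusted p under 0.05, while DESeq2 called 9 and limma-voom 0. Among them STAT3 had 0.20 and CSF2RB, the shared beta chain of the IL-3 receptor, had 1.00. With the trends removed edgeR called 5 of these 23 genes higher and 2 lower (against 6.09% and 8.47% of all genes tested). Of 23 ERK feedback genes, 9 MAP kinase phosphatases and 5 RSK and MSK kinases edgeR called 0, with 10, 3 and 4 at an unadjusted p under 0.05. DESeq2 called 7, 3 and 2 of them, and limma-voom 0. SPRY4, S100A8 and S100A9 were too low to be tested.

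Lineage markers were present in both lines. All 8 erythroid markers and 6 of 7 megakaryocyte markers were at 1 CPM or more in all 6 libraries, and GP1BB was at 0. The 8 monocyte and granulocyte markers summed to 138 and 181 CPM in RuxP and 326 and 319 CPM in FedP, with CD14, MPO and ELANE under 1 CPM throughout. Over the 25 monocyte and granulocyte genes tested, the median log2 fold change was 0.16, or -0.22 with the trends of GC content and length described below removed. The 4 stem and progenitor markers summed to 979.8 and 1237 CPM in RuxP and 2251 and 2195 CPM in FedP, most of it GATA2, at 773 and 1039 CPM in RuxP and 2134 and 2075 CPM in FedP (log2 fold change 1.22, edgeR adjusted p = 0.097). With these trends removed GATA2 had 0.36 and was called (edgeR adjusted p = 0.038). The 14 stem and progenitor genes tested had a median of 0.25, or -0.07 with these trends removed. Lymphoid markers summed to between 0.744 and 3.82 CPM. In values named after they were seen, SPI1, the myeloid factor PU.1, was at 260 and 254 CPM in FedP and 80.0 and 124 CPM in RuxP (log2 fold change 1.33, edgeR adjusted p = 0.11, and 0.44 with the trends removed). KIT, the stem cell factor receptor, was at 73.8 and 75.4 CPM in FedP and 148 and 141 CPM in RuxP (edgeR adjusted p = 0.054). The parental cells held 20.4 and 24.8 CPM of it. With the trends removed the log2 fold change of KIT was -0.61, and it was called (edgeR adjusted p = 0.0068).

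Mitochondrial transcripts took different shares of the libraries. They made up 12.44 and 12.65% of all counts in FedP, 25.75 and 23.08% in RuxP, and 15.64 and 23.61% in the parental cells. All 13 mitochondrially encoded genes (median log2 fold change -1.20) were lower in both FedP libraries than in both RuxP libraries, as were 35.7% of all genes tested. Of the 13, 1 was called lower (against 1.16% of all genes tested), MT-CO2, a subunit of cytochrome oxidase (log2 fold change -0.90, edgeR adjusted p = 0.044). Of 72 respiratory chain genes of the nucleus and 79 cytosolic ribosomal protein genes, edgeR called 0, with 24 and 45 at an unadjusted p under 0.05, DESeq2 called 15 and 39, and limma-voom 0 and 2. Of all 15924 genes tested, 5103 had an unadjusted p under 0.05 in edgeR, DESeq2 called 3605 and limma-voom 445. HSPA8, the constitutive HSP70 chaperone, was the 1 called of 20 heat shock genes (-1.16), and HNRNPM the 1 called of 26 splicing factors (-1.14). Of all genes tested, 1.16% were called lower.

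The fold changes followed the GC content of the genes. In the tenth of genes with the least GC in their exons (27.4 to 38.8%) the median log2 fold change was -0.53, and in the tenth with the most (61.3 to 73.8%) it was 1.04. Across the 15924 genes Spearman's rho with GC content was 0.6, a description over genes that are not independent. The genes called lower had a median GC content of 43.7% and those called higher 57.6%, against 48.5% over all genes tested. The trend was as strong between the 2 parental libraries, whose difference had a rho of 0.586 and medians of -0.58 and 0.94 in the same groups of genes.

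The mitosis list was compared with genes of like GC content. Its median GC was 42.7%, and genes from 41.2 to 43.4% had a median log2 fold change of -0.34, against -1.81 for the list. When the trends with GC and length were removed from each library, 30 of the 32 mitosis genes were called lower (8.47% of all genes tested), with a median of -1.57, and 36 of the 38 replication genes. The share of calls that were higher rose from 16.7 to 41.8%, and the count of calls from 222 to 2318 (14.6%).

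With these trends removed, all 185 genes called lower were still called lower, and 26 of the 37 called higher were still called higher. The median log2 fold change of the lower genes moved from -1.72 to -1.57 and that of the higher genes from 1.58 to 0.90. ALAS2, PKLR and HBG1 stayed called at 1.63, 2.03 and 1.77, while PRSS36, a serine protease, moved from 1.87 to 0.72 (edgeR adjusted p = 0.061) and MVP from 1.16 to 0.53 (edgeR adjusted p = 0.1). SHISA7, HELZ2, CTSF and VAMP5 stayed called at 1.40, 0.75, 1.14 and 1.05, and LGALS1 and FGF17 at 0.80 each. HELZ2 and FGF17 were no longer called when a replicate block was added to this fit. Of the erythroid genes, 16 were then called higher (6.09% of all genes tested) and 2 lower. Whether the GC trend comes from the cells or from the libraries was not tested.

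Other lists changed their picture with this adjustment. Of 24 cholesterol synthesis genes, edgeR called 0 as fitted (13 at an unadjusted p under 0.05, 10 by DESeq2 and 1 by limma-voom) and 12 higher with the trends removed, at medians of 0.38 and 0.42. Of the 79 cytosolic ribosomal protein genes 36 were then called higher and 1 lower, and all 13 mitochondrially encoded genes were called lower. In that fit 6.09% of all genes tested were called higher and 8.47% lower. The 47 KRAB zinc finger genes, repressors of transposons with a median GC of 41.1%, had a median of -0.60 as fitted and -0.24 with the trends removed. Of 27 megakaryocyte and platelet genes, edgeR called 0 as fitted (13 at an unadjusted p under 0.05, 9 by DESeq2 and 1 by limma-voom). Of all 15924 genes tested, 5103 had an unadjusted p under 0.05 in edgeR as fitted, DESeq2 called 3605 and limma-voom 445. ITGA2B, the platelet integrin chain CD41, was read at 1820 and 1766 CPM in FedP and 762 and 1004 CPM in RuxP, with a log2 fold change of 1.02 as fitted and 0.18 with the trends removed.

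**Figure D4:**
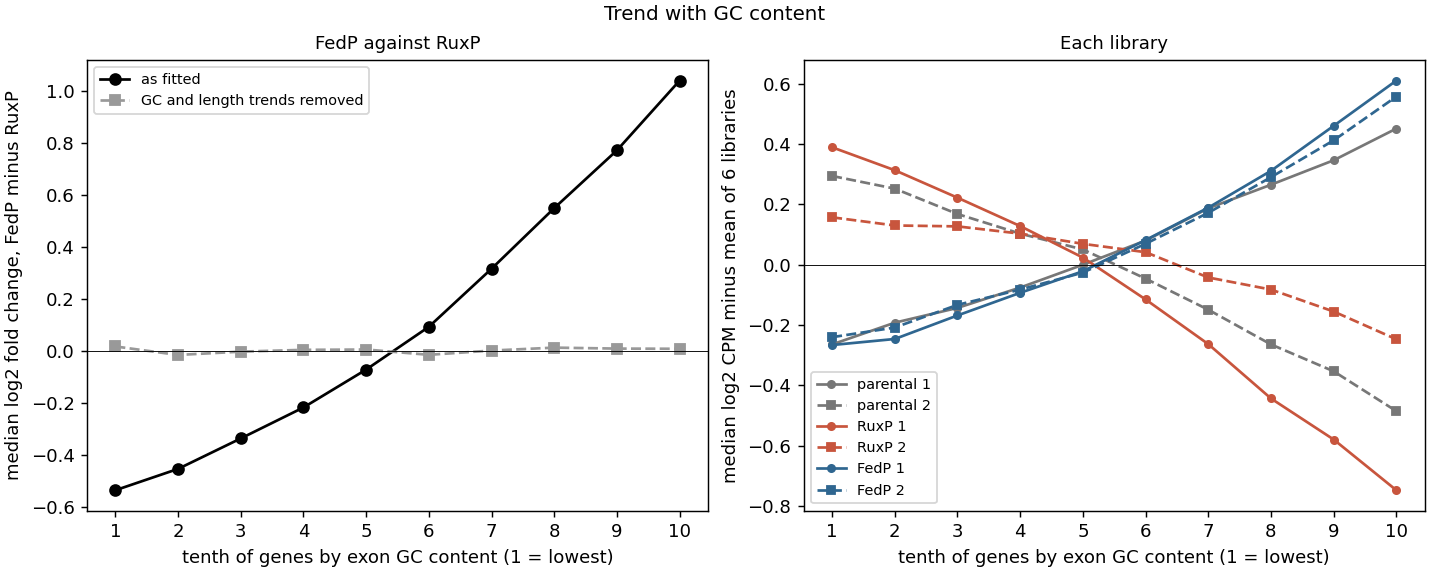
Left, median log2 fold change, FedP minus RuxP, in 10 equal groups of genes ordered by exon GC content, as fitted and with the trends removed. Right, the median deviation of each library from the mean of the 6, where parental 1 runs with both FedP libraries and parental 2 with both RuxP libraries.

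**Figure D5:**
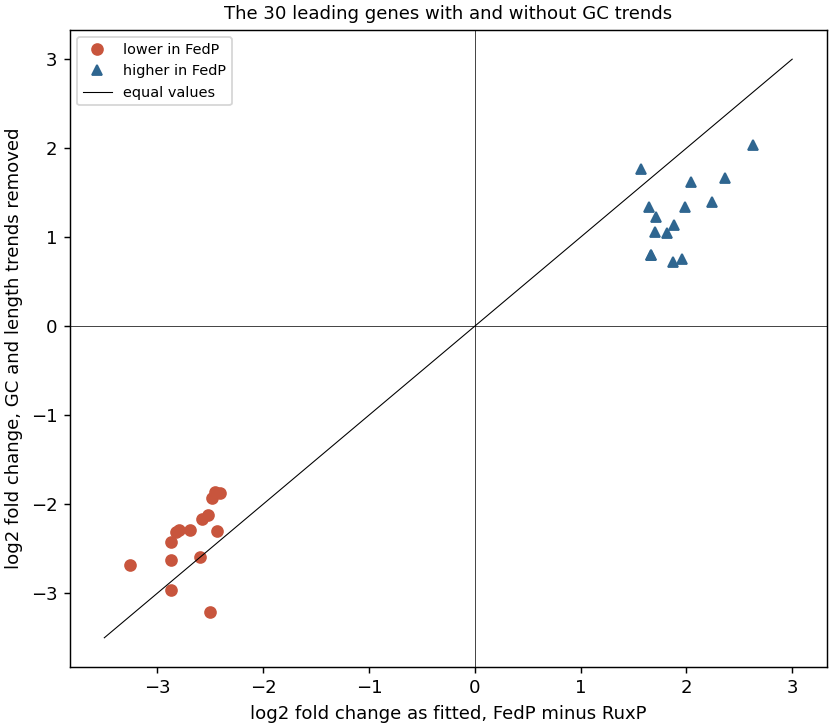
Log2 fold change of the 30 leading genes as fitted (horizontal) and with GC and length trends removed (vertical), with the line of equal values. All 30 keep their sign, and most genes higher in FedP lie below the line.

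Fold changes also differed by chromosome, in step with GC. The highest and the lowest of the 23 nuclear chromosome medians lay 0.82 apart, and 0.15 apart with the GC and length trends removed.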

How the data were processed

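Total RNA of HEL cells was purified on columns, treated with DNase and read on a NovaSeq instrument, per the labels' protocols. The submitters' processing notes name bcl2fastq, STAR 2.5.1a, edgeR and the build GRCh38. The authors deposited raw counts per gene. How reads were assigned to genes, with or without strand, and by which annotation and library kit is not given in the sources used here. Even numbers made up 59.8 to 73.07% of the counts from 1 to 20.

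The table held 34343 lines, of which 130 repeated a gene, and 34213 genes were kept. The 6 libraries of the table were fitted together in edgeR 4.0.16 (R 4.3.3): filterByExpr by group, TMM scaling, quasi-likelihood test, two-sided, 3 residual degrees of freedom, no replicate block. CPM are counts scaled to the TMM library size, and the floor of 3 counts, which a count of 0 still allows for counting error, was 0.0352 to 0.0604 CPM. Standard errors are on the log2 scale. Fits of RuxP and FedP against the parental cells are not given, only the parental levels. Positions, GC content and length of merged exons come from GENCODE 29, and promoters from RefSeq. GC and length trends were removed by a lowess curve (span 0.3) in each library. DESeq2 1.42.0 and limma-voom 3.58.1 were alternatives. The code was tested on simulated data. In simulated counts that carried the GC trend of these libraries, the fit as reported also called genes that had not been changed, in larger number than the calls reported here, and few such genes were called once the trends were removed. The simulated spread was estimated from these libraries with the trend still in them, and the trend was then added. The number of such calls among the genes reported here therefore cannot be read from the simulation.

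The genes named were the 15 largest rises and the 15 largest falls among called protein-coding genes at a mean of 4 CPM or more with groups that do not overlap, 11 genes followed whatever their value, and from each list up to 4 members that passed or else up to 3 of the highest level. The comparison, the lists and the genes were chosen with earlier results of these data known, and 4 lists (cyclins, recombination, condensin and cohesin, red cell metabolism) were written after the values were seen. Lists were described by counts and medians, with no set test. Some genes that the rule picks are not reported here.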

Additional observations from a re-analysis of the deposited data

How the results depend on the processing

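The count of 222 genes, from 2 libraries in a group and 3 residual degrees of freedom, was 2886 without the low-count filter, 3605 with DESeq2, 445 with limma-voom, 5783 from the FedP and RuxP libraries alone, 39 for a fold change tested against 1.5, and 2318 with GC and length trends removed. Leaving out 1 library gave 0 to 5672 genes, where the lone library left in its group is assumed to vary like the others. The cause of these changes was not tested. The counts were 252 with DESeq2 size factors and 264 with upper-quartile factors. Among alternatives chosen after seeing the data, halved counts gave 275, and RuxP replicate 1 left out with the trends removed gave 375.

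The labels do not say whether equal replicate numbers share a culture or day. The differences between replicates 1 and 2 had a Pearson r of -0.0399 between RuxP and FedP, -0.204 between parental and RuxP, and 0.0364 between parental and FedP. These differences also followed GC content, with a rho of -0.406 in RuxP, 0.228 in FedP and 0.586 in the parental cells. The correlations therefore cannot decide whether the samples were paired. With the replicate block 0 genes were called, and 796 with the replicate block and the GC and length trends removed.

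Of the 47 called genes that were followed through the alternatives, 45 stayed called with GC and length trends removed, 0 with the replicate block, and 0 without any 1 of the RuxP and FedP libraries. None of the 47 changed sign under any alternative run. Of the genes named that were not called, 3 did: RPS6KA1 was -0.0262 with the trends removed, -0.0263 with the block as well and -0.0211 without RuxP 1 and the trends. CISH was -0.14, -0.14 and -0.24 in the same fits, and JAK2 was 0.04 in the last. Of the 19 genes followed that were not called, 16 were called from the FedP and RuxP libraries alone and 8 with the trends removed. Over all genes, those 2 fits called 5783 of 15550 and 2318 of 15924.

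The rho of fold change with GC content was 0.741 over genes of at least 4 CPM and 0.495 to 0.54 when 1 FedP or RuxP library was left out. The span of chromosome medians was 0.149 with the trends removed. The libraries held 51799814 to 79755715 counts, more in FedP than in RuxP. Whether this unequal depth shaped the calls was not tested.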
